A study of Caenorhabditis elegans with 6 samples.

Results

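The pan-neuronal and synaptic genes of *Caenorhabditis elegans* were followed in L1 larvae, the stage that hatches from the egg, with and without the chromodomain protein gene *mrg-1*. The set was given as 30 gene names, and a row belonged to it when its WormBase identifier carried one of those symbols. Of the 20392 genes in the count table, 29 did. The name *tag-168* matched no symbol in the tables used and was not analysed here. The rule used the names alone and no expression value, though the names were chosen with earlier results of these data known.

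The data are total RNA libraries, with 3 of N2, the standard wild type, and 3 of strain XA6227, labelled *mrg-1* -/- and called the mutant here. The mutant line was kept over a balancer. Mutant larvae were the offspring of 2000 to 4000 homozygous adults, picked by hand as animals that did not roll. N2 larvae came from about as many adults rinsed from plates, so that genotype and handling cannot be told apart. All embryos were freed with hypochlorite, hatched without food in M9 for 18 h before food was given back for 2 h 30 min. The labels do not name the *mrg-1* allele. Each library was made from 2 ng of RNA of whole larvae.

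Neurons signal by fusing vesicles with the plasma membrane. Small clear vesicles carry classical transmitters and fuse at active zones, and larger dense-core vesicles carry peptides that are cut and trimmed on the way. The SNARE proteins on the vesicle and on the target membrane wind together to drive fusion, a calcium sensor times it, and priming factors, scaffolds, calcium channels and motors bring the parts into place. In the worm many of these genes were found as *unc* (uncoordinated), *egl* (egg-laying defective) or *ric* (resistant to inhibitors of cholinesterase) mutants, and several serve as markers of all neurons. *snap-29* and *ehs-1* also act in membrane traffic outside neurons, and *unc-36* also acts in muscle. In whole larvae, fewer neurons and less RNA per neuron cannot be told apart.

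Library totals ran from 19238422 to 39063186 counts. Mitochondrially encoded genes took 10.6% of the counts in N2 library 1, 23.1% in library 2 and 45.6% in library 3. The mutant libraries gave them 8.42% to 12.4%. The *mrg-1* transcript stood at 30.2, 15.9 and 18.8 CPM (counts per 1000000, scaled by TMM, the trimmed mean of M-values) in N2 and at 2.11, 5.61 and 5.15 CPM in the mutant. The log2 fold change was -2.33 (SE 0.53, edgeR adjusted p = 0.0413). That call was lost when any library but N2 library 3 was left out (edgeR adjusted p up to 0.181). Over all 13460 genes tested, edgeR called 350, with 236 (1.75%) higher and 114 (0.847%) lower in the mutant. Scaled to library totals alone it called 204 higher and 11 lower, with the median log2 fold change of all tested genes moved from -0.03 to 0.27.

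All 29 genes were measured in each library, with between 94 and 75157 counts, and all 29 passed the filter on low counts. Per kilobase of deposited gene length, the peptide convertase gene *egl-3* had the highest wild-type level, at 427 ± 28.4 CPM per kilobase (SD, n = 3). The SNAP-25 gene *ric-4* followed at 408 ± 198, then *sbt-1* at 300 ± 76.6, *egl-21* at 243 ± 56.4 and *rab-3* at 207 ± 12.96 CPM per kilobase. The order of *egl-3*, *ric-4* and *sbt-1* lies within the spread of *ric-4*. The lowest were *snn-1*, *unc-31* and *unc-36*, at 4.36 ± 2.57, 6.41 ± 5.09 and 10.7 ± 3.14 CPM per kilobase. The genes thus ran from above 98.7% of the tested genes, for *egl-3*, to above 35.6% of them, for *snn-1*, on the per-kilobase scale.

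In the mutant the highest and the lowest gene were those of N2, with *egl-3* at 685 ± 100 and *snn-1* at 5.10 ± 3.70 CPM per kilobase (SD, n = 3). Between them the order differed: *ric-4* was the 2nd of the 29 in N2 and the 5th in the mutant, and *unc-31* and *unc-36* changed places. The ankyrin gene *unc-44*, whose deposited length of 23072 bases is the greatest of the set, held 21.1% to 31.8% of the summed counts of the 29 genes in a library, although it was only 8th per kilobase in both groups. The deposited length lay within 10% of the annotated exonic bases for 22 genes. It was 0.62 times the annotated value for *unc-64*, 0.69 for *snn-1*, 0.73 for *rgef-1*, 0.82 for *unc-31* and 0.86 for *rab-3*. For *unc-18* and *snap-29* it was 1.103 and 1.48 times that value. The place of these genes in the order is less sure than that of the others.

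**Figure D1:**
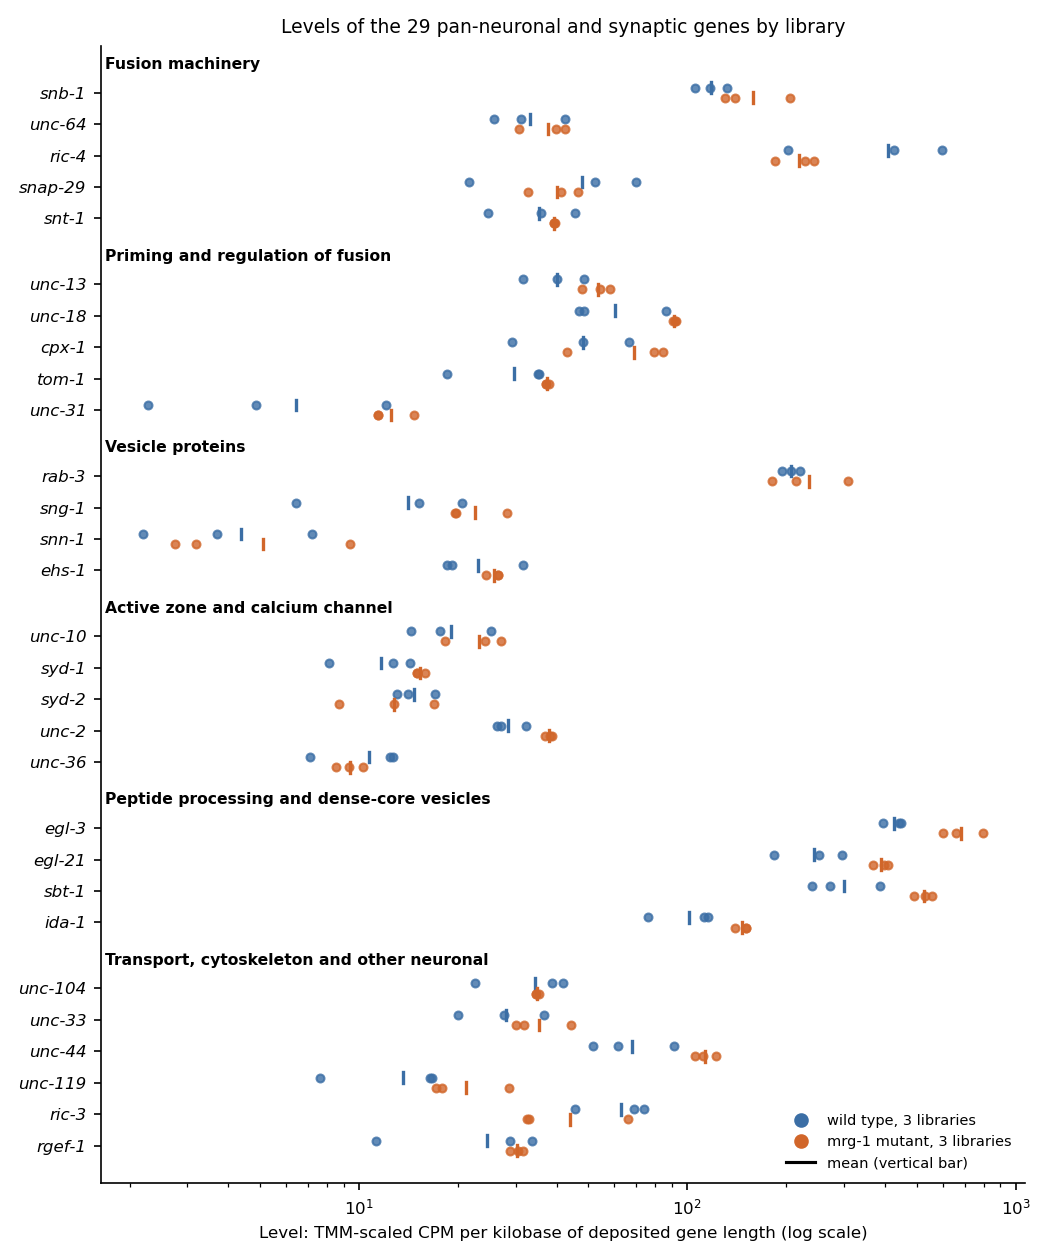
Levels of the 29 genes by role, in TMM-scaled CPM per kilobase of deposited gene length on a log axis. Each point is 1 library, blue for N2, the wild type, and orange for the *mrg-1* mutant, and the vertical bar is the mean of 3; *egl-3*, *egl-21*, *sbt-1* and *ida-1* show the mutant points to the right of all wild-type points, and *ric-4* shows wild-type points spread over nearly 3-fold.

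The question put to these libraries was what the loss of *mrg-1* does to RNA levels in the larva. No pan-neuronal or synaptic gene passed the test: edgeR called 0 of 29 at an adjusted p under 0.05, where it called 2.6% of all tested genes. The smallest adjusted p was 0.122, for *sbt-1*. At a raw p under 0.05, before adjustment, there were 5 genes, 17.2%, against 19.5% of all tested genes, which is near the background. Of these, 4 were higher in the mutant and 1 lower, beside 9.29% and 10.2% of all tested genes. DESeq2, limma-voom and limma on the deposited log2 values also called 0 of 29, while they called 9.88%, 2.72% and 3.82% of all tested genes. In these fits 6, 8 and 10 of the 29 had a raw p under 0.05. The share of all tested genes at that p was taken in edgeR only, so these counts have no background beside them. The same holds for such counts by DESeq2 and limma-voom in the lists below.

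Most fitted values nonetheless lay on the side of the mutant. The log2 fold change was above 0 for 24 of 29 genes, 82.8%, against 48.7% of all tested genes. Its median was 0.33, against -0.03 over all tested genes, and its range ran from -0.90 for *ric-4* to 0.96 for *unc-31*. The groups did not overlap in 10 genes, against 26.4% of all tested genes. The 3 mutant libraries lay above all 3 N2 libraries in all 10, 34.5% of the set, against 14.4% of all tested genes, and below them in 0, against 12%. Summed over the 29 genes, the level was 6885, 5655 and 6210 CPM in the N2 libraries and 9028, 8283 and 8889 CPM in the mutant libraries, so that the groups did not overlap. This sum leans on *unc-44* and *egl-3*, which held 21.1% to 31.8% and 16.6% to 22.6% of the summed counts in a library.

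The 95% intervals show how large a difference these libraries leave room for. For 25 of the 29 genes the lower bound lay above a 2-fold fall, which held for 39.9% of all tested genes. The exceptions were *ric-4*, *ric-3*, *snap-29* and *snn-1*. For 14 genes the upper bound lay under a 2-fold rise, against 44.1% of all tested genes, and for 11 genes, 37.9%, the whole interval lay within 2-fold either way, against 10.8%. These intervals are for single genes and are not adjusted for their number.

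**Figure D2:**
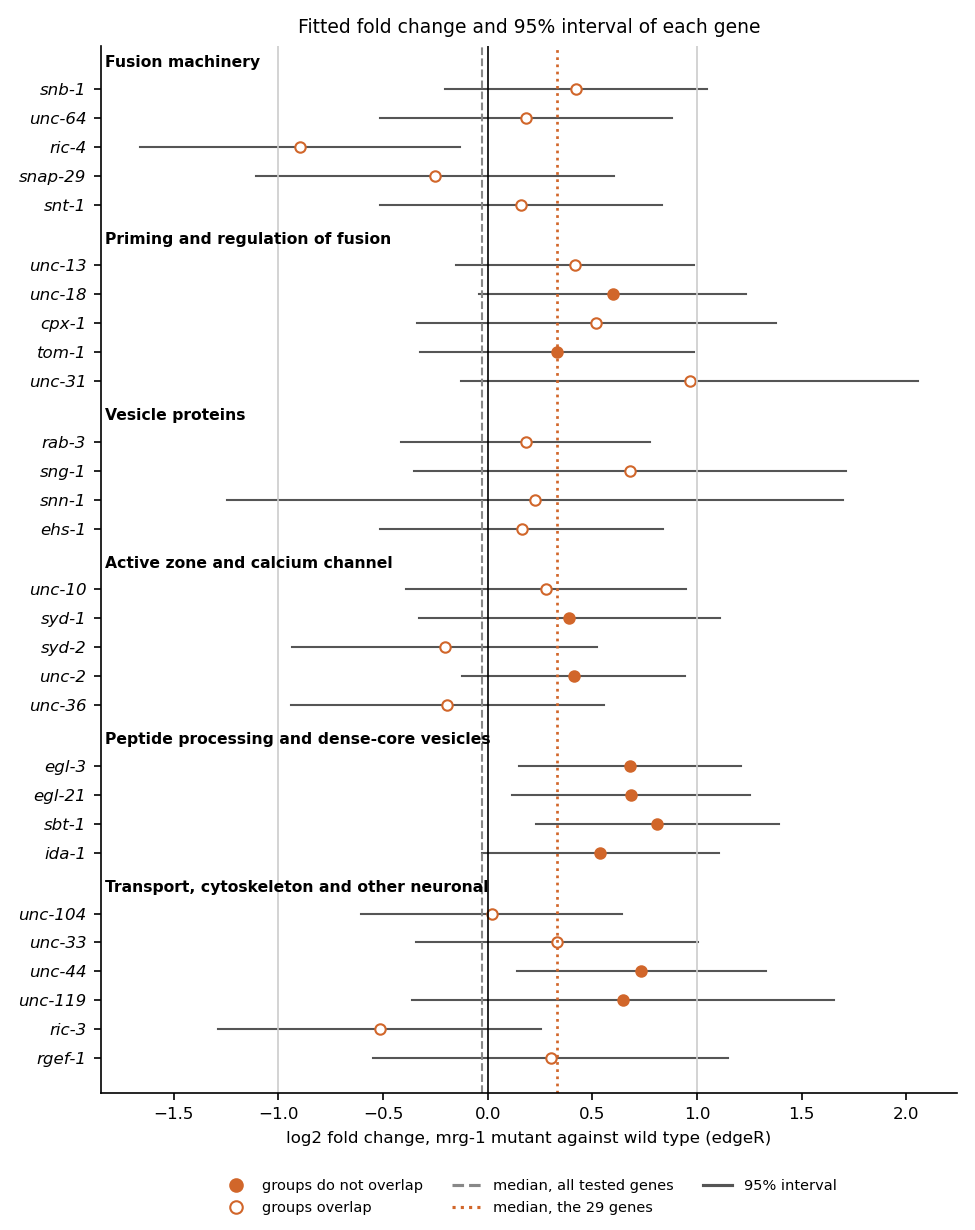
Fitted log2 fold change of each gene, mutant against wild type, with its 95% interval (edgeR, 3 libraries per group). Filled points mark the 10 genes whose groups do not overlap, the dotted line is the median of the 29 genes at 0.33 and the dashed line that of all tested genes at -0.03; most points lie right of 0 and most intervals cross it.

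In all 4 peptide-processing and dense-core vesicle genes every mutant library lay above every N2 library, though none of the 4 passed the test. *sbt-1* (WBGene00011392, chromosome V, 20827715 to 20828881 in WBcel235) encodes the 7B2 chaperone that lets the convertase mature. It stood at 191, 307 and 217 CPM in N2 and at 442, 391 and 421 CPM in the mutant. The log2 fold change was 0.81 (SE 0.27, 95% interval 0.23 to 1.39). The convertase itself, *egl-3* (WBGene00001172, chromosome V, 10169177 to 10173753), cuts peptide precursors. It stood at 1146, 1012 and 1130 CPM against 2042, 1543 and 1686 CPM, with a log2 fold change of 0.68 (SE 0.24, 95% interval 0.15 to 1.21). The N2 libraries were close to each other in *egl-3* and spread in *sbt-1*, and in both genes the lowest mutant library stood clear of the highest N2 one.

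*egl-21* (WBGene00001189, chromosome IV, 10478442 to 10481844) encodes the carboxypeptidase E that trims the cut ends. Its level was 501, 426 and 311 CPM in N2 and 673, 623 and 692 CPM in the mutant, a log2 fold change of 0.68 (SE 0.26, 95% interval 0.12 to 1.25). *ida-1* (WBGene00002048, chromosome III, 5755539 to 5765816) encodes the IA-2 phosphatase-like protein of dense-core vesicle membranes. It stood at 300, 197 and 291 CPM against 392, 390 and 363 CPM, a log2 fold change of 0.54 (SE 0.26, 95% interval -0.03 to 1.11). Adjusted over all genes, the edgeR p values of the 4 ran from 0.122 to 0.278. With any single library left out their log2 fold changes stayed between 0.36 and 1.03, and against N2 library 1 alone they were 1.15 for *sbt-1*, 0.63 for *egl-3*, 0.42 for *egl-21* and 0.36 for *ida-1*.

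A list of 18 further dense-core vesicle and peptide-processing genes had a median log2 fold change of 0.16, under that of the 4 genes. In 12 of the 18 it was above 0, against 48.7% of all tested genes. In 4 of the 18 every mutant library lay above every N2 library, against 14.4% of all tested genes. The list gave 0 calls in edgeR (2 higher and 0 lower at a raw p under 0.05) and 0 by limma-voom, and 1 in DESeq2, which called 9.88% of all genes. The DESeq2 call was *pghm-1*, for a monooxygenase that amidates peptide ends, at 70.3, 40.9 and 14.2 CPM in N2 and 132, 107 and 96.4 CPM in the mutant (log2 fold change 1.42, edgeR adjusted p = 0.12). *cab-1* stood at 622, 618 and 599 CPM against 1117, 876 and 892 CPM (log2 fold change 0.65, edgeR adjusted p = 0.163). Among the cargo, 18 of 29 tested FMRFamide-like peptide genes lay above 0, with a median log2 fold change of 0.13 and 0 calls in edgeR (2 higher and 1 lower at a raw p under 0.05), 0 by limma-voom and 2 in DESeq2. The DESeq2 calls were *flp-11*, at 5.86, 5.90 and 2.41 CPM against 15.9, 15.1 and 17.7 CPM, and *flp-3*, at 29.8, 12.6 and 25.99 CPM against 93.4, 54.8 and 29.8 CPM.

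The SNARE genes did not share a direction. *ric-4* (WBGene00004364, chromosome V, 10261131 to 10270314), the SNAP-25 of the target membrane, stood at 234.5, 495 and 692 CPM in N2 and at 266, 215 and 283 CPM in the mutant. N2 library 1 thus lay among the mutant libraries, and libraries 2 and 3 lay above all others. The log2 fold change was -0.90 (SE 0.35, 95% interval -1.66 to -0.13, edgeR adjusted p = 0.185), and against N2 library 1 alone it was 0.13. The vesicle SNARE synaptobrevin, *snb-1*, stood at 96.2, 86.4 and 107.9 CPM against 167.6, 106.9 and 114.5 CPM, with the groups overlapping by a narrow margin (log2 fold change 0.42, SE 0.29).

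The syntaxin gene *unc-64*, the other target-membrane SNARE, stood at 49.8, 41.2 and 67.4 CPM in N2 and 63.3, 67.5 and 49.0 CPM in the mutant, with full overlap (log2 fold change 0.18, SE 0.32). Its exons share 64 bases with *set-25* on the opposite strand in WBcel235, the longest such overlap of the set. *snap-29*, a SNAP-25 relative used in membrane traffic of many cells, was at 38.2, 124 and 92.7 CPM against 82.5, 57.9 and 73.3 CPM, and its N2 libraries spread 3.23-fold. Its log2 fold change was -0.25 (SE 0.39), and 0.095 when scaled to library totals. The calcium sensor synaptotagmin, *snt-1*, stood at 88.3, 47.96 and 69.5 CPM in N2, while the 3 mutant libraries lay between 76.4 and 76.8 CPM. Its log2 fold change was 0.16 (SE 0.31), and the mutant values sat inside the wild-type range.

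All 5 genes that prime or restrain fusion had a fitted value above 0, with a median log2 fold change of 0.52 and edgeR adjusted p values of 0.283 to 0.582. *unc-18*, the Munc18 partner of syntaxin, stood at 253, 137 and 142 CPM in N2 and at 269, 265 and 271 CPM in the mutant. The groups did not overlap, but N2 library 1 came close to the mutant (log2 fold change 0.60, SE 0.29). *unc-13*, whose Munc13 protein primes vesicles, stood at 333, 216 and 274 CPM against 372, 328 and 397 CPM (log2 fold change 0.42, SE 0.26), with N2 library 1 above the lowest mutant library.

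*unc-31*, the CAPS protein that primes dense-core vesicles, had the largest fitted value of the set. Its level was 52.1, 9.83 and 20.8 CPM in N2 and 63.1, 49.0 and 49.2 CPM in the mutant, a log2 fold change of 0.96 (SE 0.50, 95% interval -0.13 to 2.06). The N2 libraries differed 5.30-fold among themselves, and library 1 lay within the mutant range. Complexin, *cpx-1*, a clamp on assembled SNAREs, stood at 36.3, 50.3 and 22.2 CPM against 59.8, 63.7 and 32.5 CPM, with overlap. Tomosyn, *tom-1*, which competes for SNAREs, was at 156, 157 and 82.6 CPM against 164.6, 168.4 and 165.6 CPM, and the groups were apart by less than the N2 libraries differed among themselves.

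In all 4 vesicle genes the groups overlapped, with a median log2 fold change of 0.20. *rab-3*, the small GTPase of synaptic vesicles, was the steadiest of the set in N2 at 245, 277 and 262 CPM, and stood at 390, 271 and 228 CPM in the mutant (log2 fold change 0.18, SE 0.27). *ehs-1*, the Eps15 adaptor of vesicle recycling, stood at 92.5, 54.2 and 56.5 CPM against 71.7, 77.9 and 77.6 CPM (log2 fold change 0.16, SE 0.31). Synaptogyrin, *sng-1*, a membrane protein of the vesicle, ranged from 6.39 to 20.5 CPM in N2 and from 19.5 to 28.1 CPM in the mutant (log2 fold change 0.68, SE 0.48). Synapsin, *snn-1*, which tethers vesicles, was the weakest gene, with 94 to 307 counts in the N2 libraries and 110 to 355 in the mutant ones, and its interval, from -1.25 to 1.70, allows more than a 2-fold difference either way.

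At the active zone, 3 of 5 genes lay above 0. *unc-2*, the pore of the presynaptic calcium channel, stood at 200, 195 and 238 CPM in N2 and 287, 273 and 282 CPM in the mutant. The groups did not overlap, with a log2 fold change of 0.41 (SE 0.25, 95% interval -0.12 to 0.94, edgeR adjusted p = 0.38). Its auxiliary subunit *unc-36* went the other way in fitted value, at 51.3, 28.7 and 50.1 CPM against 37.7, 34.5 and 41.6 CPM (log2 fold change -0.19, SE 0.34, and 0.11 when scaled to library totals), with overlap.

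Of the 3 scaffold genes, 1 had groups that did not overlap. *syd-1*, a RhoGAP-like organizer of the presynapse, stood at 48.3, 42.98 and 27.4 CPM against 53.9, 50.8 and 50.7 CPM, with the groups apart (log2 fold change 0.39, SE 0.33). *syd-2*, the liprin that assembles active zones, stood at 66.7, 50.8 and 55.2 CPM against 33.8, 49.7 and 66.1 CPM (log2 fold change -0.21, SE 0.34, and 0.086 when scaled to library totals). *unc-10*, the RIM protein that ties vesicles to the channel, was at 86.9, 71.1 and 124 CPM against 118.98, 133 and 90.2 CPM (log2 fold change 0.28, SE 0.31). In *syd-2* and *unc-10* the ranges of the groups overlapped.

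Among the transport, cytoskeleton and remaining neuronal genes, *unc-44* (WBGene00006780, chromosome IV, 5975557 to 6004857) had the greatest value. This ankyrin anchors membrane proteins to the axonal cytoskeleton. It stood at 2100, 1192 and 1421 CPM in N2 and at 2436, 2579 and 2823 CPM in the mutant, without overlap (log2 fold change 0.73, SE 0.27, 95% interval 0.14 to 1.33, edgeR adjusted p = 0.163). *unc-33*, the CRMP protein that works with it in ordering axonal microtubules, stood at 101, 134 and 73.5 CPM against 117, 110 and 161 CPM, with overlap (log2 fold change 0.33, SE 0.31).

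*unc-104*, the kinesin that carries vesicle precursors down the axon, had the value nearest to 0. It stood at 211, 123 and 228 CPM in N2 and at 188, 192 and 189 CPM in the mutant (log2 fold change 0.02, SE 0.29, 95% interval -0.61 to 0.64). *rgef-1*, a Ras exchange factor gene used as a marker of all neurons, stood at 56.9, 22.3 and 66.6 CPM against 60.1, 56.8 and 62.5 CPM (log2 fold change 0.30, SE 0.39). *unc-119*, a lipid-binding chaperone gene also used as such a marker, stood at 15.3, 15.03 and 6.97 CPM against 26.3, 16.3 and 15.7 CPM, with the groups narrowly apart (log2 fold change 0.65, SE 0.46). *ric-3*, a chaperone of nicotinic receptors, was at 107.5, 115.8 and 71.2 CPM against 51.6, 50.8 and 103 CPM (log2 fold change -0.52, SE 0.36), with mutant library 3 inside the wild-type range. The neuron markers *rgef-1* and *unc-119* thus did not pass the test in either direction.

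The spread among libraries also differed between the groups. The SD of log2 CPM was larger in N2 than in the mutant for 23 of the 29 genes, which held for 73.2% of all tested genes. Its median was 0.43 in N2 and 0.21 in the mutant, against 0.72 and 0.42 over all tested genes. In *snt-1*, *unc-18*, *tom-1* and *unc-104* the SD over the mutant libraries was 0.0184 or less, while the wild-type SD of these genes was 0.44 to 0.53. *rab-3* and *egl-3* showed the reverse, with an SD of 0.09 and 0.10 in N2 and 0.40 and 0.21 in the mutant.

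N2 library 1 lay nearest to the mutant mean in 15 of the 29 genes, against 46.4% of all tested genes, and libraries 2 and 3 in 7 genes each. The mutant mean stood above library 1 by a median of 0.24 on the log2 scale, above library 2 by 0.53 and above library 3 by 0.41. Over all tested genes these medians were -0.01, 0.05 and 0.04. The mutant mean was the higher one in 23 genes against library 1, in 22 against library 2 and in 20 against library 3, so most genes of the set were higher in the mutant against each N2 library. The lowest wild-type value was in library 2 for 16 genes, in library 3 for 9 and in library 1 for 4.

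**Figure D3:**
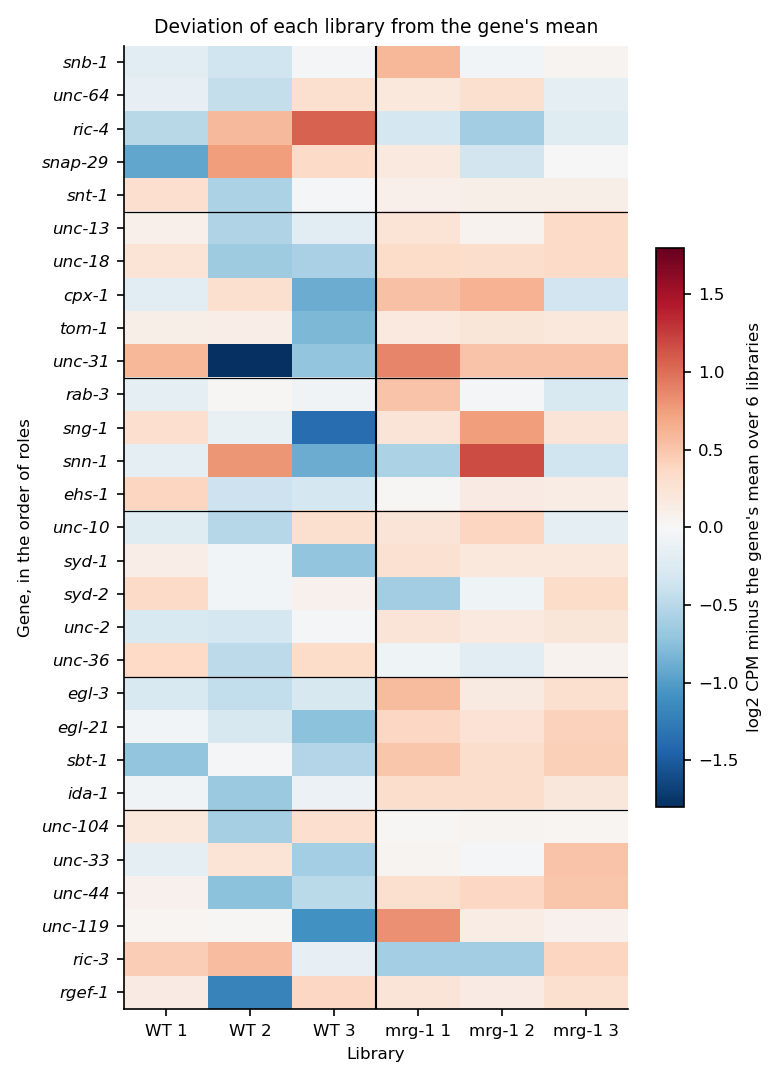
Log2 CPM of each gene in each library, minus the mean of the gene over the 6 libraries, with red above and blue below (WT marks the N2 libraries); horizontal lines separate the roles. N2 library 1 is mixed, with 15 of 29 genes above their mean, libraries 2 and 3 are mostly blue with 9 and 8, and the mutant libraries are mostly pale red with 24, 21 and 23.

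Without N2 library 1 edgeR called 4 of the 29 genes, 3 higher and 1 lower. Of all genes tested in that fit it called 7.32%, 3.92% higher and 3.4% lower. *unc-31*, *unc-44* and *unc-18* were then higher in the mutant, with log2 fold changes of 1.81, 1.0 and 0.94 and adjusted p values of 0.0321, 0.0338 and 0.0471. *ric-4* was lower, with -1.22 and an adjusted p of 0.0262. Leaving out any other library gave 0 calls among the 29 in edgeR. Without N2 library 2 or without 1 mutant library it called only 35 to 82 of all genes. Without N2 library 3, which had the largest mitochondrial share, the median log2 fold change of the 29 genes was 0.35, with 23 of them above 0. The median of all tested genes was 0.06 in that fit, a gap of 0.29, against a gap of 0.36 with all libraries.

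Partner or related genes were also set against each other within a library, per kilobase, which needs no scaling between libraries. In 14 such ratios the groups stood apart in 2. No share over other gene pairs was taken to set beside this count. The ratio of *unc-2* to *unc-36*, of channel pore to auxiliary subunit, was 2.14, 3.71 and 2.60 in N2 and 4.16, 4.33 and 3.71 in the mutant, where N2 library 2 and mutant library 3 are level. The ratio of *ric-4* to *snap-29* was 9.37, 6.12 and 11.4 against 4.92, 5.67 and 5.89. With 3 libraries against 3 an exact permutation test cannot give a two-sided p under 0.1, and none was run.

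Ratios among the peptide-processing genes varied as much within as between groups. *egl-3* over *egl-21* was 1.51, 1.57 and 2.40 in N2 and 2.01, 1.64 and 1.61 in the mutant. *sbt-1* over *egl-21* was 0.814, 1.54 and 1.49 against 1.40, 1.34 and 1.297. *ric-4* over *snb-1* was 1.72, 4.04 and 4.52 against 1.12, 1.42 and 1.74, with N2 library 1 again among the mutant libraries. The other pair of vesicle and target-membrane SNAREs, *snb-1* over *unc-64*, was 3.76, 4.09 and 3.12 in N2 and 5.16, 3.09 and 4.56 in the mutant. The ratio of *ric-4* to *snb-1* thus spread more among the N2 libraries, and that of *snb-1* to *unc-64* more among the mutant ones.

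The 29 genes lay on all 6 nuclear chromosomes, 3 on I, 6 on IV and 5 on each of II, III, V and X. The median log2 fold change of the genes on chromosome X, *unc-18*, *unc-10*, *unc-2*, *sng-1* and *syd-2*, was 0.41, and that of all tested genes on X was 0.25. On chromosomes I and III the medians of the set were 0.42 and 0.18, where all tested genes had -0.24 and -0.23. On II, IV and V the medians of the set were 0.16, 0.51 and 0.42 against -0.08, -0.09 and 0.13. On each of the 6 chromosomes the median of the set thus lay above that of all tested genes.

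The 7 other neuronal lists had median log2 fold changes of 0.13 to 0.30, under the 0.33 of the set and above the -0.03 of all tested genes. These lists were not limited to genes used only in neurons. Summed levels of the active zone and dense-core vesicle lists were higher in every mutant library than in any N2 library. In the vesicle fusion, endocytosis, axonal transport, channel and regulator, and FMRFamide-like peptide lists the sums overlapped between the groups. Of 17 tested further vesicle fusion genes 13 were above 0, with a median log2 fold change of 0.30, and 1 rose. This was *syx-2*, of the syntaxin family, at 150, 197 and 177 CPM in N2 and 392, 306 and 443 CPM in the mutant, a log2 fold change of 1.12 (SE 0.27, edgeR adjusted p = 0.0461). DESeq2 and limma-voom also called it. The call did not hold with N2 library 2 or 3 left out (edgeR adjusted p 0.0921 and 0.0533), nor with mutant library 1, 2 or 3 left out (0.194, 0.123 and 0.216). In these fits the log2 fold change ran from 1.003 to 1.281. With the replicate number as a block the adjusted p was 0.0525.

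The endocytosis and recycling list had a median log2 fold change of 0.14 over 15 genes, with 0 calls in edgeR (2 higher and 2 lower at a raw p under 0.05) and 1 each in DESeq2 and limma-voom. That call was the phospholipid scramblase gene *scrm-1*, at 16.5, 6.97 and 7.19 CPM against 40.5, 24.9 and 36.8 CPM. *dpy-23*, the mu subunit of the AP-2 clathrin adaptor, stood at 137, 212 and 148 CPM against 100.2, 90.5 and 92.2 CPM (edgeR adjusted p = 0.135). Over the 18 genes of active zone and presynaptic assembly the median was 0.28, with 0 calls in edgeR (2 higher at a raw p under 0.05), 0 by limma-voom and 1 in DESeq2. The DESeq2 call was *dlk-1*, a kinase of presynaptic assembly and axon regrowth, at 103, 82.9 and 96.4 CPM against 179, 159 and 216 CPM. *rimb-1*, the RIM-binding protein, stood at 30.4, 12.3 and 20.04 CPM against 37.4, 65.6 and 38.4 CPM. In all 4 genes the groups were apart.

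For the 22 genes of axonal transport and cytoskeleton the median was 0.22, with 0 calls in edgeR (3 higher and 2 lower at a raw p under 0.05), 0 by limma-voom and 1 in DESeq2. The DESeq2 call was *sam-4*, needed for the transport of vesicle precursors, at 33.8, 30.2 and 43 CPM against 21.4, 15.5 and 13.03 CPM. *unc-34*, the Ena/VASP actin regulator, stood at 73.5, 66.7 and 64.2 CPM against 127, 116.2 and 110.3 CPM. The list of channels and neuronal regulators had a median of 0.16 over 22 genes and 0 calls in edgeR, DESeq2 and limma-voom (1, 1 and 5 at a raw p under 0.05). Its smallest edgeR p values belonged to the Shaker channel gene *shk-1*, at 53.6, 41.1 and 48.5 CPM against 86.7, 68.3 and 77.7 CPM, and to *unc-80*, of the NALCN channel complex, at 308, 186 and 320 CPM against 414, 365 and 401 CPM.

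**Figure D4:**
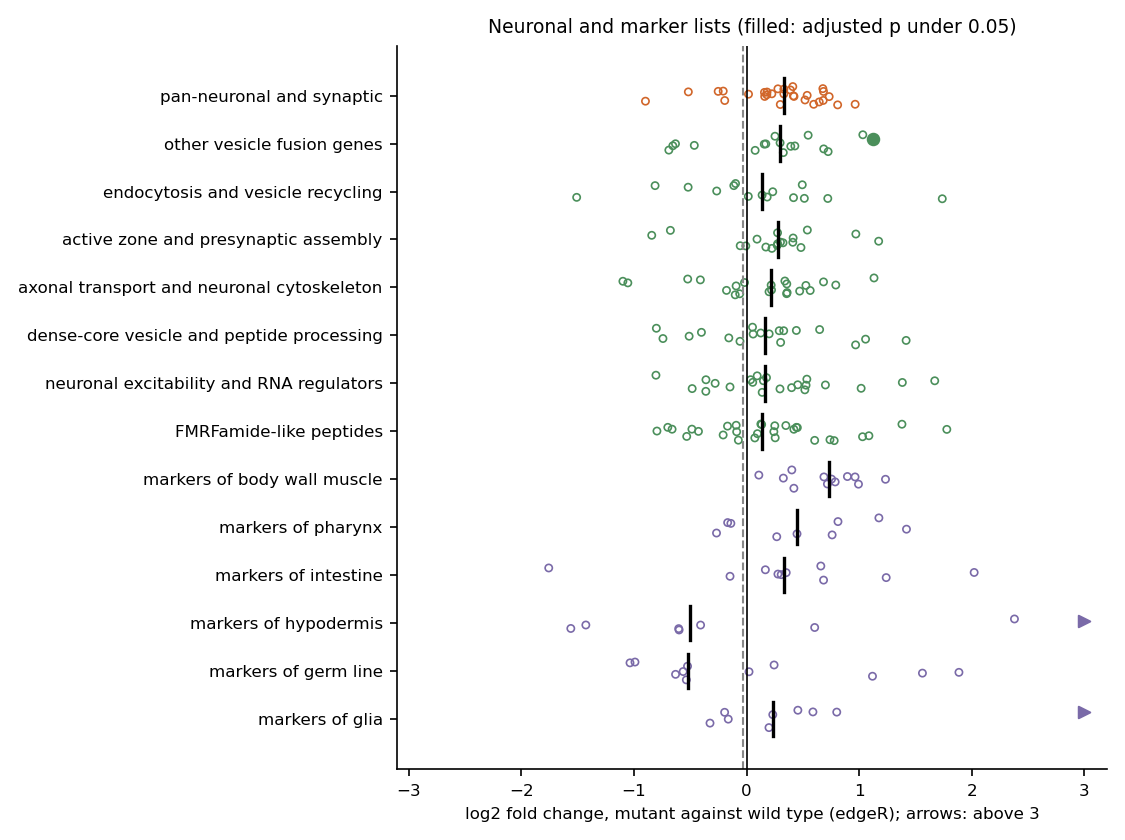
Fitted log2 fold changes of the tested genes of each list, mutant against wild type (edgeR), with 1 point per gene, filled where the adjusted p is under 0.05, and a black bar at the median. Arrows stand for *rol-6* and *delm-2*, both called and beyond the axis; the dashed line is the median of all tested genes. The pan-neuronal and synaptic genes have no filled point and a median of 0.33, and the muscle markers have the highest median, 0.74.

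Markers of other tissues moved beside these values, and their part in the result was not tested. The 12 body wall muscle markers summed to 8740 to 14781 CPM in N2 and to 17111 to 20900 CPM in the mutant. Their median log2 fold change was 0.74, with 0 calls in edgeR (6 higher at a raw p under 0.05), 3 in DESeq2 and 1 by limma-voom. The muscle myosin gene *myo-3* stood at 373, 264 and 206 CPM against 509, 622 and 547 CPM, and the twitchin gene *unc-22* at 1632, 635 and 574 CPM against 2282, 2445 and 1953 CPM. Like the 29 pan-neuronal and synaptic genes, the muscle markers summed higher in every mutant library than in any N2 library.

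Pharynx markers, 11 in the table, summed to 1281 to 3655 CPM in N2 and 3217 to 3968 CPM in the mutant, with *myo-5* and *myo-2* at 318 and 1623 CPM in N2 library 1 and at 99.7 and 359 CPM in library 3. Intestine markers, 11 in the table, summed to 1215 to 4306 CPM against 2705 to 4142 CPM, with *ges-1* at 3.91 ± 4.61 against 15.8 ± 9.61 CPM and *elt-2* at 6.16 ± 6.21 against 14.5 ± 2.03 CPM (SD, n = 3 each). The median log2 fold change was 0.45 for the pharynx markers and 0.33 for the intestine markers, so the 0.33 of the pan-neuronal and synaptic set was not particular to it. In edgeR both lists had 0 calls and 1 gene at a raw p under 0.05. DESeq2 called 1 pharynx marker and 0 intestine markers (2 of these at a raw p under 0.05), and limma-voom called 0 in both lists (3 in each at a raw p under 0.05). Both sums overlapped between the groups.

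The 12 glia markers summed to 537 to 823 CPM in N2 and 831 to 919 CPM in the mutant, with a median log2 fold change of 0.23. Of 9 tested, 1 rose, the channel gene *delm-2*, from 11, 2 and 0 counts to 153, 210 and 137 counts (edgeR adjusted p = 0.0495). The 12 hypodermis markers summed to 533 to 602 CPM against 606 to 658 CPM. Their median log2 fold change was -0.50, with 5 of 8 tested below 0, 3 of them with every mutant library under every N2 library and 1 at a raw p under 0.05. The 1 that passed the test rose, the cuticle collagen gene *rol-6*, with 0 counts in every N2 library and 69, 38 and 69 counts in the mutant (edgeR adjusted p = 0.0284). Both calls were lost without N2 library 2 and without any 1 mutant library, with edgeR adjusted p values of up to 0.205 for *delm-2* and 0.146 for *rol-6*. The glia sum was higher in every mutant library than in any of N2. The hypodermis sum was also higher, by a narrow margin, while most hypodermis markers tested had fitted values below 0. The 12 germ line markers summed to 218 to 227 CPM against 139 to 156 CPM, with 0 of 11 called in edgeR (2 higher and 1 lower at a raw p under 0.05), 2 in DESeq2 and 0 by limma-voom. The germ line sums were lower in the mutant, opposite to those of the 29 pan-neuronal and synaptic genes and the muscle markers. However, *car-1* made up much of the germ line sums. It stood at 118, 149 and 153 CPM in N2 and at 69.9, 72.6 and 69.3 CPM in the mutant. The means were 140 ± 19 against 70.6 ± 1.75 CPM for *car-1* and 4.03 ± 2.16 against 11.9 ± 0.942 CPM for *mex-5* (SD, n = 3 each). Of the 11 tested germ line markers 5 had a fitted value above 0, with a median log2 fold change of -0.52. No marker of these 6 lists that was found in the table was at 0 in all libraries.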

How the data were processed

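Total RNA of 6 libraries was read from a table of raw counts per gene with a length for each gene, as the authors deposited it, and from the authors' deposited log2 values. Each deposited log2 value is the logarithm of 8 plus the scaled count, with a single factor for every gene of a library. The submitters' processing notes name the build ce10. No aligner, counting tool, gene annotation or strand setting is given in the sources used here. Positions are those of WBcel235 (Ensembl release 115), looked up by identifier and not converted. Exons of 8 of the 29 genes overlap another gene of the table, by up to 64 bases. The number of columns that could not be tied to a sample was 0.

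The quasi-likelihood test of edgeR 4.0.16 (R 4.3.3) compared the groups on counts of the 13460 genes that its default expression filter kept, with TMM scaling and no covariate. Its p-values were adjusted by Benjamini-Hochberg over these genes, with calls under 0.05. SE is the absolute log2 fold change divided by the square root of F, and 95% intervals use the t distribution with the degrees of freedom of that test. The fit was tested on simulated data. The test was repeated with another scaling or filter, by DESeq2 1.42.0, by limma 3.58.1 on voom weights or on the deposited log2 values, with a replicate block, against a 2-fold minimum, and with libraries left out. Log2 CPM used a prior count of 2. The N2 and mutant libraries are called biological replicas by the series. Where cultures were not separate, p-values measure only the spread between these samples. The 29 genes have 94 or more counts in each library, and counting error was not separated from the spread between libraries. Figures used matplotlib 3.10.9.

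Named are *mrg-1*, all 29 genes, and from each other list the called genes or else the 2 with the smallest p. The genes and lists were chosen with earlier results of these data known. Of the names in the other lists *rab-27*, *erp-1*, *nca-1* and *opt-2* matched no symbol.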

Additional observations from a re-analysis of the deposited data

How the results depend on the processing

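The count of 0 called genes among the 29 was 4 without N2 library 1. It stayed at 0 in the other alternatives with more than 1 library in each group. Not all of these could readily have changed it. The 2-fold minimum is stricter than the test as reported and could add no call. Without N2 library 2 or without 1 mutant library edgeR called only 35 to 82 of all genes. The median log2 fold change of the 29 genes, 0.33, was 0.63 with library totals and 0.72 with limma on the deposited log2 values. There the median of all tested genes was 0.27 and 0.35. The gap between the medians, 0.36 in the test as reported, was smallest against N2 library 1 alone, at 0.12 (0.29 against 0.16), and next with no expression filter, at 0.18 (0.35 against 0.16). The median of the 29 lay between 0.35 and 0.43 with 1 library left out. The count over all genes, 350, was 215 with library totals, 734 with no expression filter, 1330 in DESeq2, 44 against a 2-fold minimum, and 35 to 1043 with 1 library left out. Calls among the 7 other neuronal lists went from 1 to 3 with limma on the deposited values, 3 with no filter, 7 in DESeq2, 2 in limma-voom, 2 with the replicate block, 0 against a 2-fold minimum and 0 to 5 with 1 library left out. The higher share of calls was 67.4%, and 94.9% with library totals.

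Of 493 log2 fold changes of the 29 genes under the alternatives, 20 changed sign, none of them called. With library totals *unc-36*, *syd-2* and *snap-29* were at 0.11, 0.086 and 0.10, and with the deposited log2 values at 0.17, 0.070 and 0.21. *unc-104* was at -0.00163 without mitochondrial genes. With 1 library left out, *unc-104* lay between -0.22 and 0.20, *snt-1* between -0.048 and 0.38, *rgef-1* between -0.051 and 0.62, *snap-29* between -0.60 and 0.12, *snn-1* between -0.53 and 0.79, *rab-3* between -0.060 and 0.34 and *syd-2* between -0.46 and 0.0245. Against N2 library 1 alone *unc-104*, *snt-1*, *ric-4*, *ehs-1*, *snap-29* and the marker *myo-2* were at -0.14, -0.19, 0.13, -0.27, 0.91 and -0.029. The cause was not tested.

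The labels do not say whether libraries of the same replicate number were grown together. Same-numbered libraries correlated in their deviations from the group means at -0.0048, 0.043 and 0.093, and not every library correlated best with its own number. With the replicate block edgeR called 431 genes and 0 of the 29, with a median of 0.40. What depth contributes to the intervals was not tested.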
